A study of Mus musculus with 42 samples.

Results

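The colon takes up sodium and chloride from its lumen and can also secrete chloride, and water follows the salt. Electroneutral uptake pairs sodium-proton exchangers, Slc9a3 and Slc9a2, with the chloride-bicarbonate exchanger Slc26a3, and Chp2 is a calcineurin B homologous protein that binds sodium-proton exchangers. Electrogenic uptake runs through the epithelial sodium channel, built of the subunits encoded by Scnn1a, Scnn1b and Scnn1g and controlled by aldosterone, the sodium pump at the base of the cell is modulated by small FXYD proteins such as those of Fxyd3 and Fxyd4, and Cftr is the apical channel through which crypt cells release chloride.

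These 10 genes, of 19232 named in at least 1 table, were taken by name from all 12 tables. The set was chosen with earlier results of these data known. The tables cover 42 libraries of RNA sequencing from mouse colon. Muc2-mCherry+ cells (the reporter of goblet cells, M2) and Gli1-lineage tdTomato+ stromal cells (Rosa26-tdTomato, T) came from proximal and distal colon of mice that all carried Gli1-CreERT2: GWT mice with both target genes intact, GS4 mice with Smad4 fl/fl and GA3 mice with Alk3 fl/fl, a gene listed as Bmpr1a. All of these mice, controls included, received 100 µl per day of tamoxifen at 20 mg/ml and were studied on day 30, as adults of both sexes. The Cre is driven by Gli1, and the labels give the deletion as one in Gli1+ cells. Wild-type colonic organoids are epithelium grown without stroma in a medium rich in Wnt signals. The paper gives them as distal colon organoids, a segment that the labels leave out. They were kept with IL-1 (the α and β forms) or IL-17A at 10 nM, or with neither cytokine, for 12 or 72 h. Each tissue group has 2 libraries and each organoid group 3, and since no label tells if a library is 1 mouse or a pool, p-values measure only the spread between libraries, which may be technical.

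Several libraries limited what could be compared. Depth was 15647603 to 20783127 reads in the 12 Muc2-mCherry+ libraries, 14222902 to 23686940 in the 12 Gli1+ libraries and 14815170 to 17665812 in the 18 organoid libraries. Of the 6 organoid controls 4 were distinct: Control-12h 2 held the same reads as Control-72h 1, and Control-12h 4 the same as Control-72h 4. Among the organoids IL17A-72h 2 stood apart, with 4828 normalized counts of Slc26a3 against 27620 and 31731 in IL17A-72h 1 and 3. In the stroma GWTT-Proximal 2 carried epithelial reads, a summed 516 CPM (reads scaled to a common library total) over 6 pan-epithelial markers against 14.98 CPM in GWTT-Proximal 1. Both GWTM2 libraries numbered 1 came from female mice and the other 10 Muc2-mCherry+ libraries from male mice, as read from X- and Y-linked transcripts. Muc2 itself, the gene that drives the reporter, was 179572 and 224217 normalized counts in GWTM2-Proximal and 18753 and 14042 in GA3M2-Proximal, a log2 fold change of -3.63 (limma, adjusted p = 0.046), and GA3M2-Distal was below both controls as well (-2.26, adjusted p = 0.31). In GS4M2 cells Muc2 was above both controls, at 168657 and 212088 against 401714 and 356310 proximally (1.00, adjusted p = 0.24) and 43021 and 113478 against 238217 and 194631 distally (1.62, adjusted p = 0.43). The goblet marker sum was 33111 to 64109 CPM over the 4 GWTM2 libraries, 43592 to 52109 CPM in GS4M2 and 13544 to 26889 CPM in GA3M2. Smad4 was 41.5 to 70.1 CPM in GS4T stroma against 94.8 to 108.6 CPM in GWTT, and Bmpr1a 105.0 to 124.9 CPM in GA3T against 166.4 to 188.5 CPM. In Muc2-mCherry+ cells Smad4 was 108.1 to 109.3 CPM in GS4M2-Proximal against 98.3 to 111.9 CPM in GWTM2-Proximal, and 152.9 to 153.99 against 154.2 to 159.2 CPM distally. Bmpr1a was 69.7 to 86.1 CPM in GA3M2-Proximal against 108.5 to 117.6 CPM, and 79.8 to 86.3 against 93.7 to 106.96 CPM distally. It was 89.3 to 93.9 CPM in GS4M2-Proximal and 81.7 to 86.1 CPM in GS4M2-Distal. The part of these levels in the results for GA3M2 and GS4M2 was not tested.

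The genes lie on 5 chromosomes (GRCm38, the assembly called mm10, with GENCODE M21 gene models). Slc26a3 spans 31390871 to 31473917 of chromosome 12, Slc9a2 40680574 to 40769273 of chromosome 1, and Slc9a3 74121457 to 74169442 of chromosome 13. Chromosome 6 holds Cftr (18170687 to 18322768), Fxyd4 (117933559 to 117937692, minus strand) and Scnn1a (125320659 to 125344943). Chromosome 7 holds Fxyd3 (31068172 to 31076704, minus strand) and, further along, 3 members within 488.3 kb. These are Scnn1g (121734479 to 121768475), Scnn1b (121865038 to 121918514) and Chp2 (122219496 to 122222824), with gaps of 96.56 kb and 301 kb between them. Exons of Fxyd3 share 2059 bases with Lgi4 on the opposite strand, and exons of Cftr 129 bases with Gm15592. The strand setting of the counting is not given in the sources used here, so counts of those genes are uncertain; Lgi4 was at 5.48 to 33.3 CPM in the stromal libraries and had no row in the Muc2-mCherry+ and organoid tables.

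RefSeq promoters (GRCm38.p6, plus strand, the 250 bases before the start) are printed for the pair whose levels moved together across Muc2-mCherry+ libraries, Slc26a3 and Chp2, and for the neighbouring channel subunits Scnn1b and Scnn1g. Capitals mark the only match, on either strand, to the letters TTTATG, a core bound by the intestinal CDX factors. The windows are chr12:31437969-31438218, chr7:122219246-122219495, chr7:121864788-121865037 and chr7:121734229-121734478.
Slc26a3: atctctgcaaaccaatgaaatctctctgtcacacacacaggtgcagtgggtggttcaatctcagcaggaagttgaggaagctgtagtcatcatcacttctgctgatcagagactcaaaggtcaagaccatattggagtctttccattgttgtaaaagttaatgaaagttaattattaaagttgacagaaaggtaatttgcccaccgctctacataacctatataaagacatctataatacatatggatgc
Chp2: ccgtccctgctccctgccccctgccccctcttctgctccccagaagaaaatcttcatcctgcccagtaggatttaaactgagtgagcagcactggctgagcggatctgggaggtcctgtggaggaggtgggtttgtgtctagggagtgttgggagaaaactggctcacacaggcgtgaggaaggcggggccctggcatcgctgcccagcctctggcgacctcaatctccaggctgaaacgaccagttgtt
Scnn1b: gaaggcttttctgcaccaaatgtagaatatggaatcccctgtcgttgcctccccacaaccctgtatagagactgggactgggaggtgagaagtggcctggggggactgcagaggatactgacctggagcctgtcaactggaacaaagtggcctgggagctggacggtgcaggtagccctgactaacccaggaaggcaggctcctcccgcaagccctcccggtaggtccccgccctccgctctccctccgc
Scnn1g: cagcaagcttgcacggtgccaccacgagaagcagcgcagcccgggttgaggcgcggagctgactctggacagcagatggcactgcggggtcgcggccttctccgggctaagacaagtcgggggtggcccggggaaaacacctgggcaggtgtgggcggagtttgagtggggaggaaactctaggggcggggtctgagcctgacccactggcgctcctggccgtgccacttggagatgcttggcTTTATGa

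Of the 10 genes 8 had a promoter in the table. TTTATG stood in 1 of the 8, at 7 bases before the start of Scnn1g, and in 10.8% of all 32851 promoters of that length. The SMAD palindrome GTCTAGAC stood in none of the 8 and in 0.167% of all promoters, the kappaB motif in none and in 1.21%, and the palindromic steroid receptor element in none and in 0.00913%. The RefSeq start of Slc26a3 used here lies inside the GENCODE gene, whose first base is at 31390871. Slc26a3 had the lowest share of G and C of the 8, 38.8%, and Cftr the highest, 76.4%.

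Levels per kilobase of exon placed the genes in different orders in proximal Muc2-mCherry+ cells and in culture, which differ in colon segment too. In GWTM2-Proximal cells Scnn1a led with 45.9 ± 2.93 CPM per kb (SD, n = 2), before Cftr at 23.7 ± 3.95, Chp2 at 20.2 ± 8.92, Slc26a3 at 16.6 ± 7.75 and Slc9a3 at 15.4 ± 0.291. Slc9a2 was at 15.1 ± 5.08. Scnn1a stood clear of the next gene, and from Cftr down to Slc9a2 each gene lay within the spread of its neighbour in the order, although Cftr lay above Slc9a3 by more than their spread. Fxyd3 (8.01 ± 2.25), Scnn1g (0.561 ± 0.733) and Fxyd4 (0.132 ± 0.0409) came last. In GWTM2-Distal cells Chp2 came first at 51.1 ± 43.5 CPM per kb (SD, n = 2), before Scnn1a at 44.8 ± 5.65 and Slc26a3 at 35.7 ± 34.9. These lay within their spread, so the distal order is unsettled. Over the 4 distinct organoid controls Slc26a3 led with 83.2 ± 8.98 CPM per kb (SD, n = 4), followed by Chp2 at 48.0 ± 17.8, Slc9a2 at 28.6 ± 7.93, Cftr at 25.0 ± 2.03 and Scnn1a at 15.4 ± 3.21. Scnn1b and Scnn1g were close to undetected in these organoids, at 0.155 ± 0.124 and 0.0350 ± 0.0337 CPM per kb. Scnn1b was 12.5 ± 6.01 CPM per kb in GWTM2-Proximal and 7.63 ± 7.87 in GWTM2-Distal cells.

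**Figure D1:**
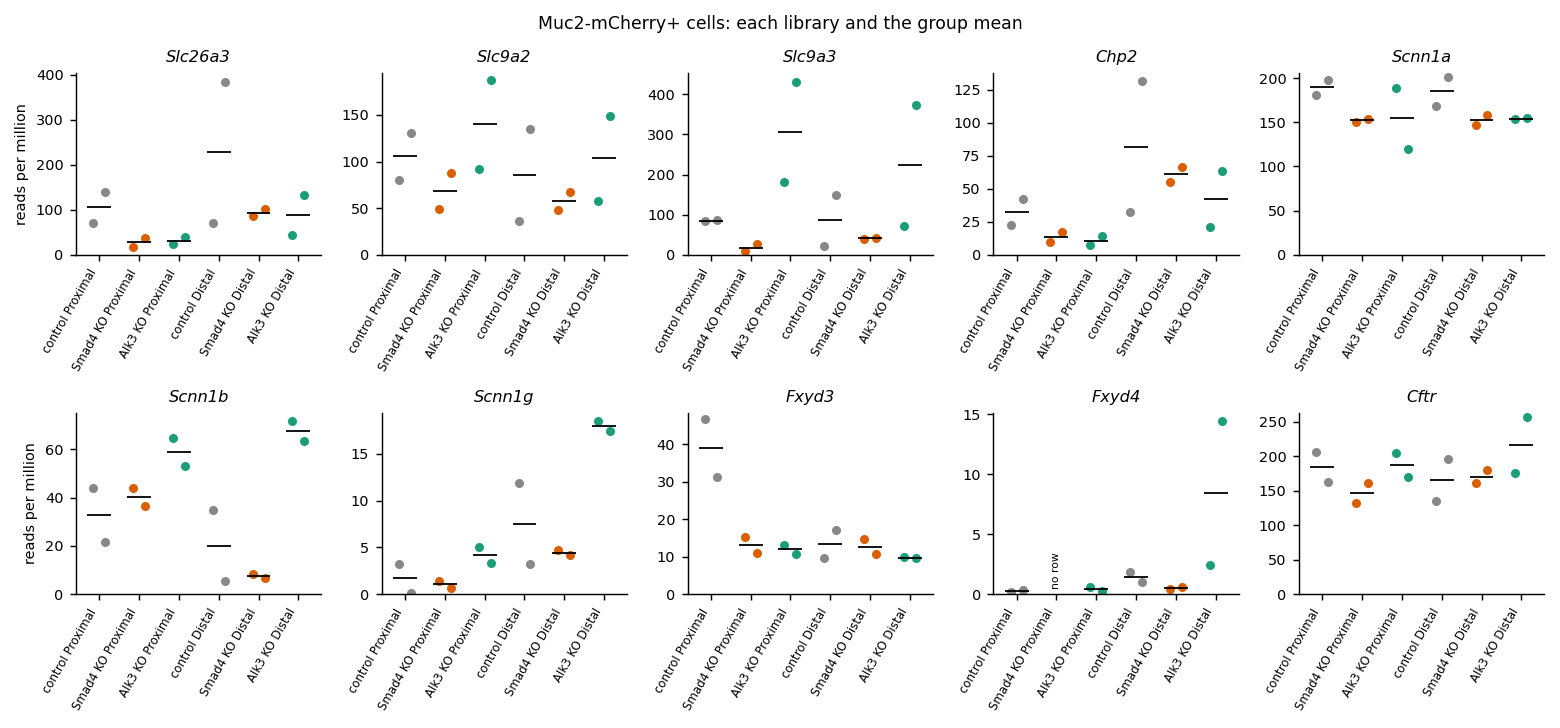
Level (CPM, linear axis from 0) of each transport gene in the 12 Muc2-mCherry+ libraries, by genotype and colon segment, with a point per library and a line at the group mean. Slc26a3, Chp2 and Fxyd3 were lower in both proximal knockout groups than in proximal controls, and proximal Slc9a3 was lower in the Smad4 knockout and higher in the Alk3 knockout.

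The first question was whether loss of Smad4 or Alk3 in stroma changed these genes in the neighbouring Muc2-mCherry+ cells. In the proximal colon of GS4M2 mice 7 of 9 transport genes had lower means on the log2 scale, led by Slc9a3 and Slc26a3. No member was called by limma (adjusted p below 0.05 and at least a doubling or halving), where 0.325% of all 13246 genes tested were called, and edgeR called 0 and DESeq2 2. At an unadjusted p below 0.05 and the same fold 4 of 9 passed, all lower, against 4.28% of all genes. Both groups were separate and lower in 6 of 9 members and in 25.2% of all genes. Leaving out GS4M2-Proximal 1 gave 1 call and leaving out GS4M2-Proximal 2 gave 2. Fxyd4 has no row in that table and was not analysed there.

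Slc26a3, mutated in congenital chloride diarrhoea, was 1204 and 2409 normalized counts in GWTM2-Proximal and 280 and 639 in GS4M2-Proximal. Both knockout libraries lay below both controls, a log2 fold change of -2.01 (SE 0.45, adjusted p = 0.13). Slc9a3, the main apical sodium-proton exchanger of the colon surface, was 1421 and 1470 against 144 and 461, a change of -2.48 (SE 0.49, adjusted p = 0.11). Chp2 was 379 and 729 against 157 and 286, a change of -1.31 (SE 0.39, adjusted p = 0.19). Slc26a3, Slc9a3 and Chp2 were thus lower in every knockout library, while the exchanger gene Slc9a2, with 1369 and 2238 against 812 and 1477, overlapped between groups. Fxyd3 came nearest to the threshold, with 792 and 533 normalized counts in controls and 249 and 186 in knockouts (log2 fold change -1.59, SE 0.24, adjusted p = 0.070). DESeq2 called Fxyd3 (adjusted p = 9.2e-07) and Chp2 (adjusted p = 0.015).

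The channel genes moved less. Scnn1a was 3079 and 3394 normalized counts in GWTM2-Proximal and 2477 and 2597 in GS4M2-Proximal, a log2 fold change of -0.35 (SE 0.10, adjusted p = 0.19). Scnn1b, which encodes the beta subunit, overlapped at 752 and 373 against 723 and 616. Scnn1g was low and scattered at 54.9 and 2.16 against 23.1 and 11.2. Cftr was 3506 and 2788 against 2179 and 2714, a change of -0.36 (SE 0.16, adjusted p = 0.32).

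In proximal GA3M2 cells Slc26a3, Chp2 and Fxyd3 were again below both controls while Slc9a3 was above both. No member of 9 was called by limma (0.0899% of 13346 genes were, in either direction), edgeR called 0 and DESeq2 4, and 4 passed at the unadjusted p with the fold (6.83% of all genes). Groups were separate and higher in 3 members (26% of all genes) and lower in 3 (26.1%). Leaving out GA3M2-Proximal 1 gave 2 calls and leaving out GWTM2-Proximal 1 gave 1. The GWTM2 libraries are the same ones as for GS4M2, scaled anew in this table. Slc26a3 was 1282 and 2547 normalized counts in GWTM2 and 421 and 752 in GA3M2 (log2 fold change -1.68, SE 0.40, adjusted p = 0.20). Chp2 was 404 and 770 against 132 and 276 (-1.54, SE 0.45, adjusted p = 0.24), and Fxyd3 844 and 564 against 241 and 207 (-1.62, SE 0.26, adjusted p = 0.12). Slc9a3 ran the other way, at 1513 and 1554 against 3311 and 8264 (1.77, SE 0.41, adjusted p = 0.20). Scnn1b was 801 and 395 against 1181 and 1017 (0.96, SE 0.34, adjusted p = 0.28), and Cftr, at 3733 and 2948 against 3744 and 3247, lay close in both groups. Slc9a2 (1458 and 2366 against 1687 and 3588) and Scnn1a (3278 and 3588 against 3449 and 2305) overlapped, and Scnn1g was 58.5 and 2.28 against 92.6 and 64.6 (2.49, SE 1.27, adjusted p = 0.39). Fxyd4, at 3.66 and 5.71 against 11.07 and 4.61, was below the filter.

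Markers of neighbouring cell types were summed beside these values. The absorptive colonocyte list (9 markers, all with reads) summed to 3799 and 7753 CPM in GWTM2-Proximal and 1640 and 2606 CPM in GS4M2-Proximal. In GA3M2-Proximal it was 2141 and 4471 CPM, which overlaps the controls. Car1 was the largest part of these sums, with 2160 and 5037 CPM in GWTM2, 530 and 1096 in GS4M2 and 779 and 1817 in GA3M2. None of the 9 genes was called in either knockout. In GS4M2 7 of 9 had a lower mean (list median of log2 fold change -0.67). In GA3M2 it was 5 of 9, with 4 higher (median -0.04), among them Krt20, at 234 and 446 against 398 and 872 CPM. The stromal list summed to 2.12 and 2.71 CPM in GWTM2-Proximal and to 8.05 and 29.8 CPM in GA3M2-Proximal, and Lum has no row in those tables. The part of these cells, of the lower Muc2 in GA3M2 and of the higher Muc2 in GS4M2 was not tested, and in sorted pools fewer cells of a type and less RNA per cell cannot be told apart.

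In the distal colon the 2 GWTM2 libraries differed widely in several members, and no member was called in either knockout. Slc26a3 was 1245 normalized counts in the female GWTM2-Distal 1 and 6963 in the male GWTM2-Distal 2, with 1447 and 1772 in GS4M2-Distal between them. Slc9a3 (401 and 2717 against 682 and 727), Chp2 (576 and 2375 against 930 and 1157) and Slc9a2 (635 and 2439 against 801 and 1171) behaved alike, and Scnn1b ran in the opposite order, 615 and 98.5 in controls against 143 and 116. Scnn1a, at 2983 and 3646 against 2464 and 2750 (-0.34, adjusted p = 0.48), and Fxyd4, at 33.1 and 18.1 against 7.59 and 11.03 (-1.33, SE 0.54, adjusted p = 0.47), were lower in both knockout libraries, as were 22.6% of all genes. Scnn1g (209.7 and 58.9 against 78.7 and 73.5), Fxyd3 (171 and 311 against 246 and 187) and Cftr (2387 and 3539 against 2703 and 3131) overlapped. Slc26a3, Slc9a3, Chp2 and Slc9a2 were all high and Scnn1b low in the same control library. None of 10 members was called in GS4M2-Distal by limma, edgeR or DESeq2, and none passed at the unadjusted p with the fold, against 2.7% of all 13078 genes, of which 0% were called after adjustment. Without GWTM2-Distal 1 limma called 4 members lower, Slc26a3, Slc9a3, Slc9a2 and Chp2, and without GWTM2-Distal 2 it called 1.

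In distal GA3M2 cells Scnn1b and Scnn1g were above both controls and Scnn1a was below both, and none of them was called. Scnn1b was 588 and 95.1 normalized counts in GWTM2-Distal and 1237 and 1041 in GA3M2-Distal, a log2 fold change of 2.25 (SE 0.81, adjusted p = 0.40). Scnn1g was 200.6 and 56.8 against 318 and 285 (1.48, SE 0.58, adjusted p = 0.42), and Fxyd4, a regulator of the pump in kidney and colon, 31.7 and 17.5 against 41.1 and 236 (2.02, SE 0.86, adjusted p = 0.44). The groups of all 3 genes were separate, as for 22.1% of all genes with higher values. Slc26a3 (1191 and 6721 against 764 and 2160), Slc9a3 (384 and 2622 against 1248 and 6105) and Chp2 (551 and 2292 against 363 and 1043) overlapped, as did Slc9a2 (608 and 2355 against 997 and 2438), Fxyd3 (163 and 300.5 against 169 and 156) and Cftr (2284 and 3415 against 3015 and 4204). Scnn1a was 2854 and 3519 against 2637 and 2526 (-0.30), separate and lower as for 22.2% of all genes. No member of 10 was called by limma, edgeR or DESeq2 (0% of all genes in limma), and 2, Scnn1b and Scnn1g, passed at the unadjusted p with the fold (4.12% of all genes). Without GWTM2-Distal 1 limma called 5 members (Scnn1b, Scnn1g and Fxyd4 higher, Slc26a3 and Chp2 lower), and without GWTM2-Distal 2 it called 2 others, Slc9a3 and Slc9a2, both higher.

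The direct comparison of both knockouts, tested on CPM in 1 fit over the 12 Muc2-mCherry+ libraries, set Slc9a3 and Scnn1b apart by size but not past the threshold. Proximal Slc9a3 was 8.76 and 27.3 CPM in GS4M2 and 181.4 and 431.2 CPM in GA3M2, with 83.5 and 85.8 CPM in GWTM2 between them. The Smad4 effect minus the Alk3 effect was -4.08 on the log2 scale (95% interval -6.10 to -2.06, adjusted p = 0.061). Distal Scnn1b was 8.51 and 6.65 CPM in GS4M2 and 72.0 and 63.7 CPM in GA3M2, a difference of -3.01 (interval -4.38 to -1.64, adjusted p = 0.057). Distal Fxyd4 (-2.23, adjusted p = 0.12) and Scnn1g (-1.80, adjusted p = 0.20) lay in the same direction. In all 0 of 19 tests of members were called by limma or edgeR, where 0.552% of proximal and 0.717% of distal genes were called, and 5 passed at the unadjusted p with the fold. Slc26a3 differed by -0.23 proximally (interval -1.90 to 1.43) and 0.28 distally (interval -1.38 to 1.94). Both intervals include a doubling in either direction.

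Segments were compared in the same CPM fit. In GWTM2 cells Fxyd3 was higher proximally, with 46.5 and 31.1 CPM against 9.63 and 17.2 CPM distally, a proximal minus distal difference of 1.49 (interval 0.83 to 2.15, adjusted p = 0.031). It was the 1 of 10 members called, against 1.92% of all genes, and the call was lost when either GWTM2-Proximal library was left out or when the control libraries were fitted alone. Over the mean of the 3 genotypes 2 of 9 members were called (3.4% of all genes), both lower proximally: Scnn1g by -1.69 (interval -2.47 to -0.92, adjusted p = 0.0096) and Chp2 by -1.66 (interval -2.51 to -0.81, adjusted p = 0.017). Proximal Chp2 spanned 7.22 to 42.5 CPM and distal Chp2 21.1 to 131.2 CPM over the 6 libraries each, which overlap, and proximal Scnn1g 0.126 to 5.07 against 3.25 to 18.5 CPM. Leaving out GWTM2-Distal 1 raised that count to 4, and leaving out GWTM2-Proximal 1 lowered it to 1. Slc26a3 (-1.29, adjusted p = 0.077) and Scnn1b (1.05, adjusted p = 0.081) lay on opposite sides of 0 and missed the threshold, and Scnn1a differed by 0.00 (interval -0.24 to 0.25). The knockout effects themselves differed between segments for no member in limma or edgeR (0 of 19 tests called, with 0% of all genes called for GS4 and 0.00743% for GA3, and 2 at the unadjusted p with the fold, Fxyd3 at -1.45 in GS4M2 and -1.22 in GA3M2).

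**Figure D2:**
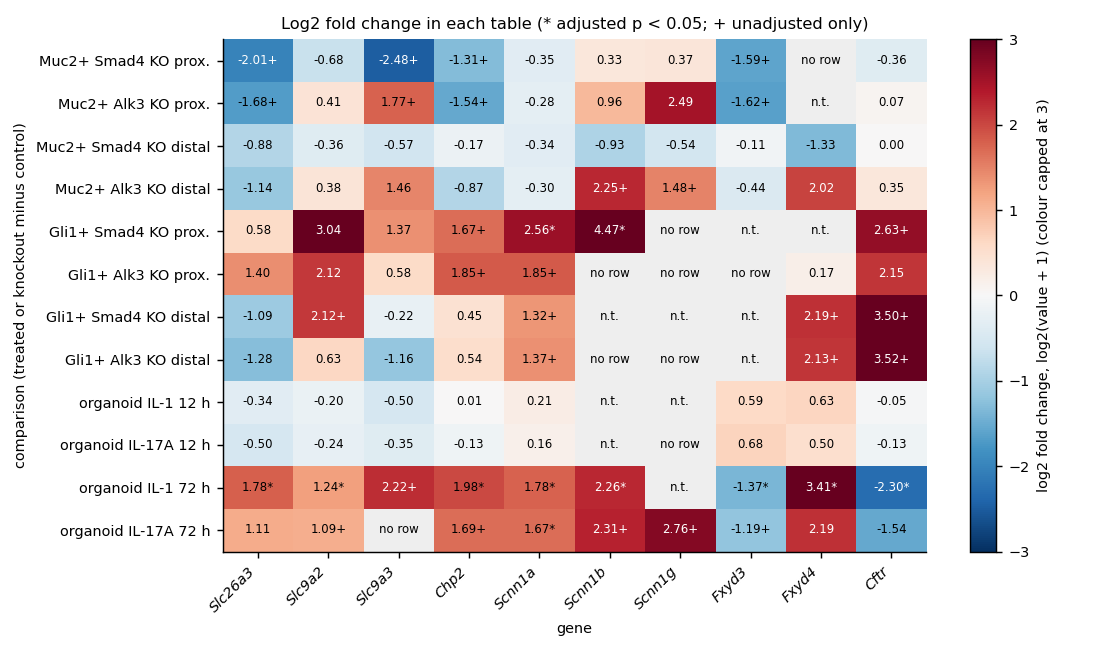
Log2 fold change (cytokine or knockout minus control, colour scale capped at 3) of each transport gene in each of the 12 tables, with an asterisk for genes called by limma, a plus for genes past the unadjusted p and the fold only, n.t. for genes below the filter and "no row" where a table lacks the gene. Asterisks stand in the 72 h organoid comparisons and in proximal Gli1+ Smad4 knockout cells, and none in Muc2-mCherry+ cells.

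In Gli1+ stroma the transport genes were measured mostly at low levels beside epithelial markers. The stromal markers summed to 41782 to 58130 CPM over the 12 libraries. Gli1 itself was uneven proximally, at 1.40 and 90.97 CPM in GS4T, 1.98 and 72.2 CPM in GA3T and 37.98 and 96.3 CPM in GWTT. Its part in the following results was not tested. The 6 pan-epithelial markers had reads in every library and summed to 14.98 to 516.1 CPM in the 4 GWTT libraries and to 431.6 to 1552 CPM in the 8 knockout libraries, and the part of epithelial reads in the following results was not tested. In GS4T-Proximal 2 of 7 members tested were called higher, against 5.25% of all 15319 genes (9.61% in either direction). At the unadjusted p with the fold 4 passed (16% of all genes), edgeR called 2 and DESeq2 3, and 4 had separate, higher groups (34% of all genes). Scnn1a was 14.5 and 33.8 normalized counts in GWTT-Proximal and 111 and 166 in GS4T-Proximal, a log2 fold change of 2.56 (SE 0.52, adjusted p = 0.036). Scnn1b had 1 read over both GWTT libraries and 70 over both GS4T libraries (adjusted p = 0.035). The ratio was 65.2, with an exact 95% interval of 11.3 to 2610 that covers counting error only. Scnn1b passed the filter only through its GS4T libraries, so its test depended on the values it tested. Cftr, at 13.4 and 105 against 184 and 313 (2.63, adjusted p = 0.13), and Chp2, at 111 and 240 against 605 and 448 (1.67, adjusted p = 0.051), were separate between groups and not called. Slc26a3 was 1.03 and 492 in GWTT-Proximal and 71.0 and 29.9 in GS4T-Proximal, so 1 control library held most of its reads. Slc9a2 (3.10 and 284.9 against 296 and 265) and Slc9a3 (8.27 and 499 against 238 and 129) were split between the controls in the same way, and Fxyd3 and Fxyd4, at most 15.4 in any of these libraries, were below the filter. Without GWTT-Proximal 2 all 7 were called, without GWTT-Proximal 1 it was 4, and without either GS4T-Proximal library none.

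The other 3 stromal comparisons gave no call by limma or edgeR. In GS4T-Distal 4 of 7 members passed at the unadjusted p with the fold (18.5% of all genes; 14% were called), and DESeq2 called 4. Cftr was 3.91 and 27.1 normalized counts in GWTT-Distal and 70.0 and 248 in GS4T-Distal (3.499, SE 0.99, adjusted p = 0.052). Fxyd4 was 6.85 and 9.68 against 27.5 and 59.9 (2.19, SE 0.62, adjusted p = 0.054), and Scnn1a 49.9 and 49.4 against 77.9 and 202 (1.32, adjusted p = 0.11). Fxyd4 passed the filter only through its GS4T libraries, so its test depended on the values it tested. Slc9a2 (19.6 and 85.2 against 115 and 287) and Chp2 (570.1 and 362 against 635 and 604) were separate and higher as well, while Slc26a3 (54.8 and 189.7 against 23.0 and 96.3) and Slc9a3 (44.0 and 135 against 26.6 and 163) overlapped. Of all genes 34.4% were separate and higher in GS4T-Distal. Fxyd3, at most 11.7, was below the filter. Scnn1b had 3 reads over both GWTT-Distal libraries and 26 over both GS4T-Distal libraries, a ratio of 8.995 (exact 95% interval 2.76 to 46.4, counting error only). Scnn1g was 0 in both GWTT-Distal libraries and had 19 reads in GS4T-Distal, at least 6.57-fold higher against a floor of 3 reads over the group. Limma called 2 members without GWTT-Distal 2 and 1 without GS4T-Distal 1. In GA3T-Distal Cftr was 4.46 and 30.8 against 205 and 110 (3.52, SE 0.91, adjusted p = 0.17), with 3 of 7 past the unadjusted p and fold (7.77% of all genes; 0% were called) and 2 called by DESeq2. Scnn1a (1.37), Fxyd4 (2.13) and Chp2 (0.54) were above both controls there, Slc26a3 (-1.28), Slc9a2 (0.63) and Slc9a3 (-1.16) overlapped, and Fxyd3 was below the filter. Fxyd4 passed the filter only through its GA3T-Distal libraries, so that test too depended on the values it tested. In GA3T-Proximal Chp2 was 116 and 252 against 643 and 599 (1.85, SE 0.39, adjusted p = 0.10), with 2 of 7 past the unadjusted p and fold (9.46%; 0.358% were called) and 1 called by DESeq2. Scnn1a (1.85) and Cftr (2.15) were above both controls there, as were 28.8% of all genes, and Slc26a3 (1.40), Slc9a2 (2.12), Slc9a3 (0.58) and Fxyd4 (0.17) overlapped. Without GWTT-Proximal 2 limma called 2 there, Chp2 and Slc9a2. GS4T-Proximal has no row for Scnn1g, and the GA3T tables none for Scnn1b and Scnn1g or, proximally, Fxyd3, so these were not analysed there.

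Levels in stroma were also set beside the epithelial markers, as a description with no test. Chp2 was 6.54 to 43.7 CPM over the 12 Gli1+ libraries, close to its 7.22 to 131.2 CPM in Muc2-mCherry+ cells, while Slc26a3 was 0.0612 to 29.7 CPM against 17.01 to 384.7 CPM. Fxyd4, low in both, was 0.283 to 3.59 CPM over the 12 Gli1+ libraries and 0.202 to 14.4 CPM in the 10 Muc2-mCherry+ libraries with a row. Per 1000 CPM of pan-epithelial markers Chp2 was 16.9 to 616.9 in Gli1+ libraries and 0.725 to 11.6 in Muc2-mCherry+ libraries, which do not overlap. The same ratio overlapped for the other 9 members in the libraries with a row, among them Slc26a3 (1.13 to 65.2 against 1.99 to 34.0), Scnn1a (3.95 to 57.1 against 8.86 to 19.3), Cftr (4.23 to 53.1 against 12.5 to 23.1) and Fxyd4 (0.237 to 20.4 against 0.0177 to 1.29). In GWTT-Proximal 1, the library with the fewest epithelial reads, Chp2 stood at 6.54 CPM and Slc26a3 at 0.0612 CPM. No member was called between segments in stroma (1.46% of all genes in GWTT, 0.606% over the genotypes) by limma or edgeR. Chp2 in GWTT came nearest, at -1.42 proximal minus distal (interval -2.14 to -0.69, adjusted p = 0.063), and was the 1 member past the unadjusted p with the fold. Leaving out GWTT-Proximal 2 gave 1 call there. Neither the segment difference of the knockout effect (0.0705% of genes for GS4, 0% for GA3) nor the difference between knockouts (0.11% proximally, 2.26% distally) gave a call for a member in limma or edgeR, with 3 and 0 past the unadjusted p and fold.

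**Figure D3:**
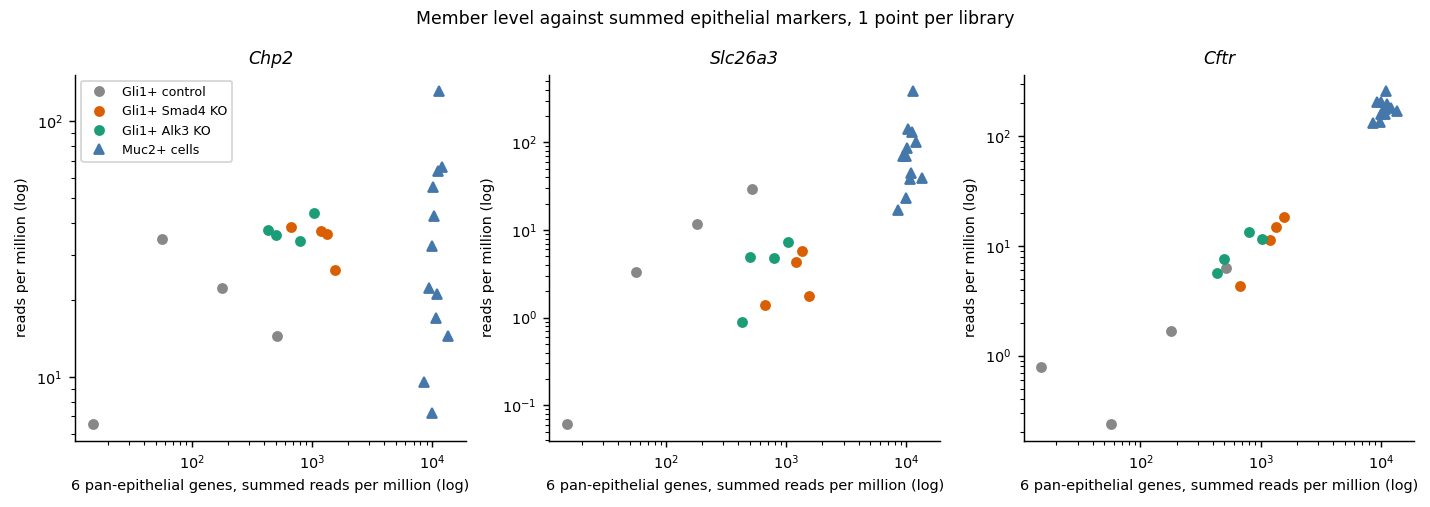
Level of Chp2, Slc26a3 and Cftr (CPM, log axis) against the summed CPM of 6 pan-epithelial markers (log axis), with a point for each of the 12 Gli1+ libraries and a triangle for each of the 12 Muc2-mCherry+ libraries. Chp2 lay in the range of Muc2-mCherry+ libraries in 11 of 12 Gli1+ libraries, at lower marker sums, and just below it in the other (6.54 against 7.22 CPM), while Cftr in Gli1+ libraries lay below all of them.

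In organoids the question was which of these genes the cytokines changed directly in epithelium. At 12 h neither IL-1 nor IL-17A gave a call for any of 8 members tested in limma, edgeR or DESeq2, and none passed at the unadjusted p with the fold, against 0.922% (IL-1) and 1.08% (IL-17A) of all genes. After adjustment 0.0542% and 0.0385% of all genes were called. Slc26a3 was 9848, 8278 and 8002 normalized counts in Control-12h and 7427, 6485 and 6620 in IL1-12h. All 3 treated libraries lay below the controls, by -0.34 (SE 0.12, 95% interval -0.63 to -0.06, adjusted p = 0.89). In IL17A-12h it was 7702, 5651 and 6128 against 10338, 8675 and 8379, a change of -0.50 (SE 0.15, interval -0.85 to -0.14, adjusted p = 0.83). Groups not overlapping and lower were found for 4.22% and 5.01% of all genes. At 12 h the deviations of same-numbered libraries from their group means correlated at 0.62 to 0.64. These tests leave that likeness in their spread. Cftr was 2788, 3348 and 3064 against 2617, 3196 and 3109 with IL-1, and Scnn1a 1347, 907 and 899 against 1404, 1112 and 1092, both overlapping, as were Slc9a2, Slc9a3, Chp2, Fxyd3 and Fxyd4 with either cytokine. Scnn1b was at most 19.4 normalized counts in any 12 h library and below the filter, and Scnn1g has no row in the IL-17A table.

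After 72 h of IL-1 Slc26a3, Slc9a2, Chp2, Scnn1a, Scnn1b and Fxyd4 were higher than in Control-72h, and Fxyd3 and Cftr were lower. Control-72h 1 and 4 hold the same reads as 12 h controls, and Control-72h 2 was nearly the same library as Control-72h 4. Cytokine and time in culture therefore cannot be told apart in the 72 h comparisons with either cytokine. Limma called 8 of 9 members tested, 6 higher (10.9% of all 13023 genes) and 2 lower (12.2%), edgeR called 8 and DESeq2 9. In either direction 23% of all genes were called, and all 9 passed at the unadjusted p with the fold (25.8%). Slc26a3 was 7848, 7121 and 7677 normalized counts in Control-72h and 28225, 16210 and 38312 in IL1-72h. Every treated library was above all controls, a 3.65-fold difference in means (log2 fold change 1.78, SE 0.29, adjusted p = 0.0047). Chp2 rose from 930, 907 and 988 to 5513, 2518 and 3733 (1.98, SE 0.26, adjusted p = 0.0031). The paper describes lower Chp2 after IL-1 and IL-17 for the same time, in RNA and protein. The direction here is that of the deposited values, and the difference was not resolved. Slc9a2 rose from 4036, 2246 and 2378 to 6064, 4982 and 9378 (1.24, SE 0.30, adjusted p = 0.015). Slc9a3 was 2487, 293 and 328 in controls and 2032, 2356 and 5107 with IL-1, which overlap (2.22, SE 0.78, adjusted p = 0.056).

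Of the channel subunits Scnn1a rose from 859, 837 and 862 to 3510, 2324 and 3076 normalized counts (1.78, SE 0.17, adjusted p = 0.0022). Scnn1b was called higher at very low levels, 3.55, 1.91 and 5.94 against 9.63, 26.9 and 32.9 (2.26, SE 0.66, adjusted p = 0.029). It passed the filter (a mean of at least 10) only through its treated libraries, so its test depended on the values it tested. Scnn1g, at 3.55, 1.91 and 0 against 19.3, 8.97 and 16.5, was below the filter. The FXYD genes went opposite ways. Fxyd4 rose from 5.32, 42.9 and 48.3 to 205, 208 and 382 (3.41, SE 0.76, adjusted p = 0.012), while Fxyd3 fell from 53.2, 95.3 and 138 to 25.3, 50.8 and 29.6 (-1.37, SE 0.45, adjusted p = 0.044). Cftr fell from 3174, 2939 and 2940 to 904, 865 and 295, a log2 fold change of -2.30 (SE 0.40, adjusted p = 0.0053). All treated libraries were below all controls.

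The controls carry these calls unevenly. Control-72h 2 and 4 were nearly the same library (their reads differed by a chi-square of 3.3 per gene), and counting them once left 5 calls of members. With only Control-72h 2, the 1 control that stands under no other label, none was called, and leaving out single libraries gave 5 to 8 calls, the 5 without Control-72h 2, Control-72h 4 or IL1-72h 3. The absorptive colonocyte list had 3 of 9 genes called higher, among them the water channel Aqp8, and summed to 4089 to 10317 CPM in IL1-72h against 1972 to 4805 CPM in Control-72h. Over the same libraries the goblet sum was 2456 to 10847 against 7167 to 7923 CPM and the pan-epithelial sum 12074 to 15163 against 8586 to 9667 CPM, and the part of a shift in cell types was not tested.

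With IL-17A for 72 h the values ran in the same directions and were more scattered. Limma called 1 of 9 members, Scnn1a, where 5.02% of all 13073 genes were called higher and 2.92% lower (7.94% in either direction). Scnn1a rose from 858, 833 and 861 to 3201, 1438 and 4293 normalized counts (1.67, SE 0.38, adjusted p = 0.045). At the unadjusted p with the fold 6 of 9 passed (20.6% of all genes), edgeR called 1 and DESeq2 8. Slc26a3 was 7832, 7081 and 7661 against 27620, 4828 and 31731, and Cftr 3167, 2922 and 2934 against 1217, 3725 and 243. In both genes IL17A-72h 2 lay on the other side of the controls from the other two treated libraries. Chp2 was 929, 902 and 986 against 6187, 1123 and 3976 (1.69, SE 0.57, adjusted p = 0.082), separate between groups. Slc9a2 (1.09, adjusted p = 0.087), Scnn1b (2.31, adjusted p = 0.096), Scnn1g (2.76, adjusted p = 0.11), Fxyd3 (-1.19, adjusted p = 0.10) and Fxyd4 (2.19, adjusted p = 0.27) were not called. Scnn1b and Scnn1g passed the filter only through their IL17A-72h libraries, so their tests depended on the values they tested. In Control-72h they were at 0.126 to 0.400 CPM and 0 to 0.235 CPM. Without IL17A-72h 2 limma called 8 of 9, with Slc26a3 at 1.98 and Cftr at -2.46, and leaving out any other library left no call. Slc9a3 has no row in this table and was not analysed there. All 3 IL17A-72h libraries were male and 2 of the 3 Control-72h libraries female, and with sex as a block no member was called.

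**Figure D4:**
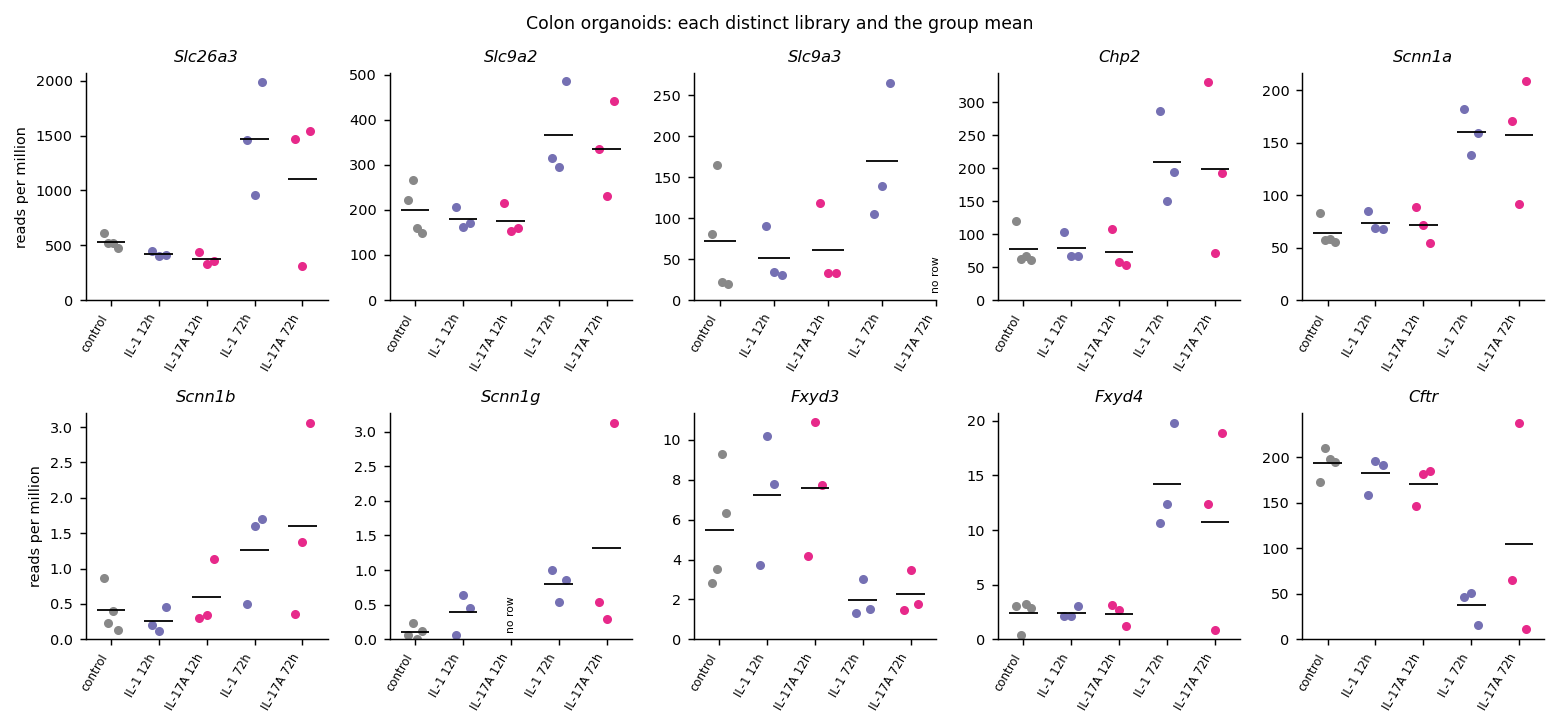
Level (CPM, linear axis from 0) of each transport gene in the 16 distinct organoid libraries, by treatment and time, with a point per library and a line at the group mean. At 72 h Slc26a3, Chp2 and Scnn1a were above all controls in the 3 IL-1 libraries and Cftr was below them, while 1 IL-17A library lay below the controls for Slc26a3.

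Because the controls of both times shared libraries, time was tested as treated 72 h minus treated 12 h on CPM, over the 16 distinct libraries. Such a difference holds time in culture as well as time with the cytokine. With IL-1 limma called 6 of 10 members (17.7% of all genes): Slc26a3 by 1.75 (interval 0.79 to 2.71, adjusted p = 0.0094), Chp2 by 1.38, Scnn1a by 1.11 and Fxyd4 by 2.12 higher at 72 h, and Fxyd3 by -1.44 and Cftr by -2.40 lower. With IL-17A it called 3 of 8 (13.1% of all genes): Slc26a3 by 1.24 (adjusted p = 0.048), Scnn1a by 1.07 and Fxyd3 by -1.37. Without IL17A-72h 2 that count was 7. Of the IL17A-12h libraries 2 of 3 were female, against none at 72 h, and with sex as a block the IL-17A count was 0. IL1-12h 3 and 4 (chi-square of 3.02 per gene) and IL17A-12h 3 and 4 (3.33) were nearly the same library, and with such pairs counted once no member was called for either cytokine, at an adjusted p of 0.0532 or more. In a fit of all 18 columns with separate controls for each time, as first planned, 1 and 0 members were called. No member differed between IL-1 and IL-17A in limma or edgeR at either time (0 of 18 tests, 0 at the unadjusted p with the fold, with 0.00755% of all genes called at 12 h and 0% at 72 h). At 72 h IL-1 minus IL-17A was 0.67 for Slc26a3 (interval -0.29 to 1.62), 0.10 for Scnn1a (interval -0.47 to 0.66) and -0.77 for Cftr (interval -2.29 to 0.75). The intervals for Slc26a3 and Cftr include a doubling.

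Slc9a3 and Fxyd3 in organoids differed with the sex of the library. Over the controls and 12 h libraries the male ones held 81.1 and 164.7 CPM (controls), 89.99 CPM (IL1-12h 1) and 118.9 CPM (IL17A-12h 1), and the female ones 19.5 to 34.3 CPM. Fxyd3 ran the other way, at 2.84 to 4.16 CPM in the male and 6.32 to 10.9 CPM in the female libraries. The ranges of neither gene overlap, and sex cannot be told apart from the organoid line. No share of all genes separate in this way is given. The female libraries came in pairs that were nearly the same library, so they are not independent points. Treated libraries at 72 h were male in 2 of 3 with IL-1 and 3 of 3 with IL-17A, and the part of sex in the lower Fxyd3 there was not tested beyond the block, under which its change with IL-1 was -1.05 (adjusted p = 0.046). At 72 h of IL-1 Slc9a3 was 105.4 and 264.7 CPM in the male libraries and 139.8 CPM in the female one, which was above every female library at 12 h or in control medium.

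The tissue effect was then compared with the organoid effect as the knockout change in Muc2-mCherry+ cells minus the cytokine change. This was done for 4 tissue groups against 4 treatments. The tissue cells were sorted, while the organoid labels name no sort, so the mix of cells differs as well. The paper gives the organoids as distal, so the proximal tissue groups also differ from them in segment. The part of both, and of time in culture in the 72 h organoid changes, was not tested. Against 12 h of cytokine no member differed (0 of 74 tests called by limma, 6 at the unadjusted p with the fold), where 0% to 0.218% of all genes were called (with IL-1 and IL-17A in turn 0.0231% and 0% in GS4M2-Proximal, 0.0231% and 0.0462% in GS4M2-Distal, 0.166% and 0.218% in GA3M2-Proximal, 0.167% and 0.152% in GA3M2-Distal). Against 72 h limma called 24 of 74, 35 without IL17A-72h 2 and 16 with near-identical organoid libraries counted once. The share of all genes called was, in the same order, 21.5% and 17.6%, 24.5% and 22.3%, 21.9% and 19%, and 23.1% and 19.9%. The calls fell on few genes, 8 on Scnn1a, 5 each on Slc26a3 and Chp2, 4 on Cftr and 1 each on Slc9a3 and Fxyd4.

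Slc26a3 was lower in proximal GS4M2 cells and higher in IL1-72h organoids, a difference of -3.35 (SE 0.87, adjusted p = 0.0086), and -3.11 (SE 0.87, adjusted p = 0.011) for GA3M2. Chp2 gave -2.66 (SE 0.81, adjusted p = 0.019) and -2.94 (SE 0.81, adjusted p = 0.010) in the same pairs. Against IL17A-72h the proximal differences were -2.68 and -2.45 for Slc26a3 and -2.37 and -2.66 for Chp2, all 4 called. Scnn1a gave -1.49 to -1.66 in all 8 pairs, each called, with its tissue change small. On the CPM scale of this fit Scnn1a averaged 63.5 CPM over the 4 distinct controls, 159.8 in IL1-72h and 157.0 in IL17A-72h. Its changes of 1.67 and 1.78 within the 72 h tables used other scaling and 3 controls, so they are not the parts of these differences. Cftr differed the other way, by 2.17 to 2.88 against IL-1 (adjusted p of 0.046 or less in the 4 pairs), since it fell in organoids and overlapped or was little lower in tissue. Slc9a3 differed by -4.02 between proximal GS4M2 and IL-1 (adjusted p = 0.021) and by 0.06 between proximal GA3M2 and IL-1 (SE 1.24). Fxyd3 gave -0.42 and -0.53 in the proximal pairs with IL-1 (adjusted p = 0.57 and 0.48), with lower values in both systems. The 4 tissue groups share GWTM2 libraries by segment and the organoid effects share controls, so these pairs are not independent.

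**Figure D5:**
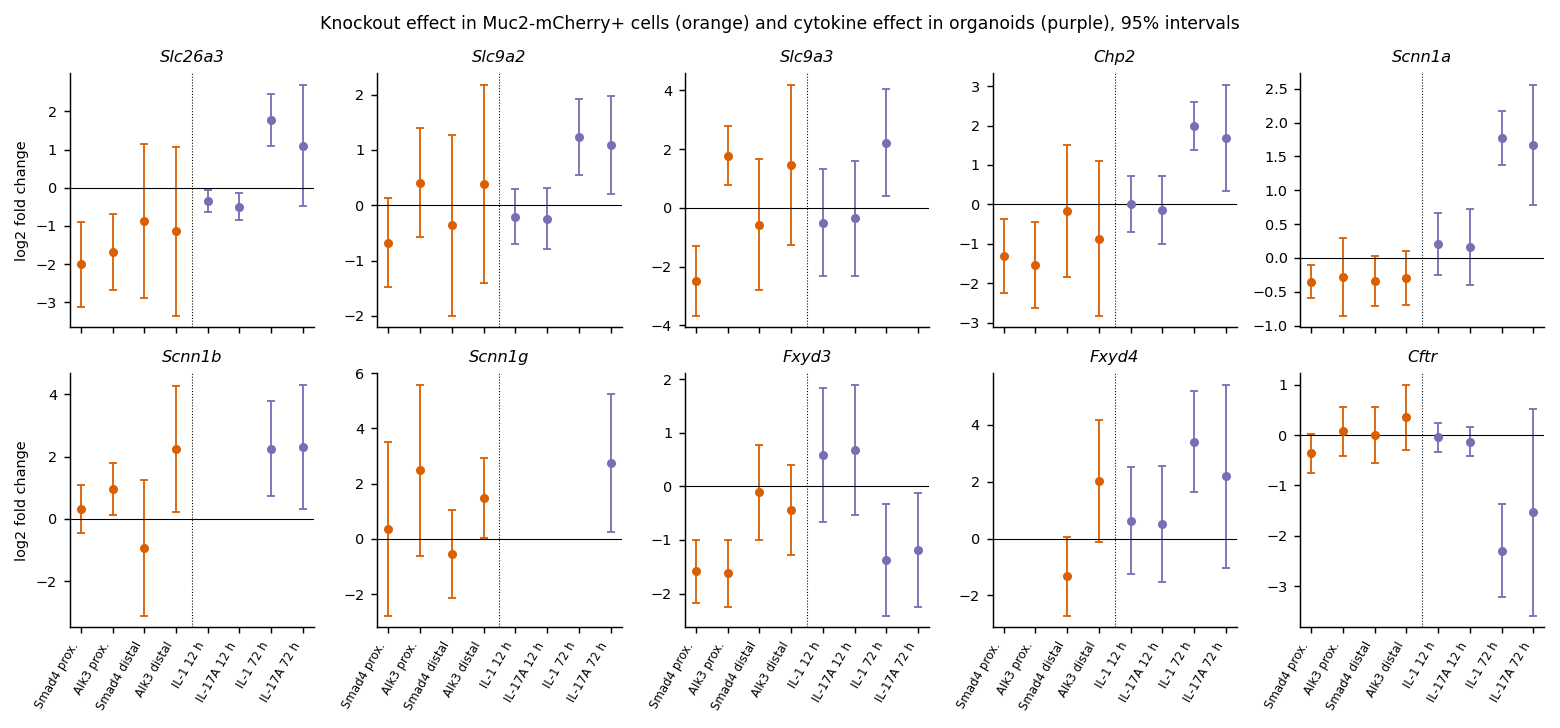
Log2 fold change with its 95% interval for each transport gene, in Muc2-mCherry+ cells (knockout minus control, orange) and organoids (cytokine minus control, purple), with no point where a gene has no row or was below the filter. Slc26a3 and Chp2 lay below 0 in proximal tissue and above 0 in 72 h organoids, and Cftr lay near 0 in tissue and below 0 in 72 h organoids.

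Other genes of salt transport were read from 39 genes in 5 lists, chosen with earlier results of these data known: partners of sodium-proton exchange, anion exchange and bicarbonate, control of the sodium channel, the sodium pump with other FXYD genes, and basolateral and other chloride and potassium transport. In proximal GS4M2 cells 1 of 32 tested was called, lower (0.325% of all genes in either direction), with a list median of -0.25 against -0.00 over all genes. It was Sgk1, the kinase through which aldosterone keeps the sodium channel at the surface, with 2347 and 2406 normalized counts in GWTM2 and 876 and 737 in GS4M2 (-1.56, SE 0.12, adjusted p = 0.018). In distal GS4M2 cells Sgk1 was 1886 and 1698 against 708 and 591 (-1.47, SE 0.14, adjusted p = 0.26), and in GA3M2 cells it was above both controls, 2499 and 2544 against 2785 and 9498 proximally and 1804 and 1639 against 2489 and 5671 distally (adjusted p = 0.39 and 0.38). None of 33 was called in distal GS4M2 or in either GA3M2 comparison, with 2, 2 and 1 past the unadjusted p and fold.

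In IL1-72h organoids 14 of 33 were called higher and 5 lower (10.9% and 12.2% of all genes), with a median of 0.46 against -0.00 over all genes. Atp12a, the non-gastric proton-potassium pump, rose from 222, 1908 and 1826 to 47653, 15901 and 48566 normalized counts (5.18, SE 0.83, adjusted p = 0.0045). Sgk1 rose from 306, 374 and 346 to 2592, 837 and 1541 (2.13, SE 0.37, adjusted p = 0.0053), and the pump subunit gene Atp1b1 (1.10) rose as well. Of the 8 genes of basolateral and other chloride and potassium transport 3 were called higher, Atp12a and the chloride channel genes Clcn2 and Ano1, and 2 lower. These were Kcne3, a subunit of the basolateral potassium channel (-2.55, SE 0.38, adjusted p = 0.0038), and Slc12a2, which loads chloride into the cell (-1.44, SE 0.33, adjusted p = 0.013). Others called higher were Slc26a2, Best2, Tsc22d3 and Tmprss2, and the others called lower Slc26a6 (-2.22) and Atp1b3 (-1.02). Of the exchange partners 4 of 7 rose, Slc9a3r1, Pdzd3, Ezr and Chp1, and 1, Slc9a3r2, fell. With IL-17A 3 of 33 were called higher (5.02% of all genes), Ezr, Chp1 and Tsc22d3, and 1 lower (2.92%), Kcne3 (-1.998, SE 0.45, adjusted p = 0.044). At 12 h none of 33 was called with either cytokine (1 and 0 past the unadjusted p and fold).

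In stroma Prss8, a protease that activates the sodium channel, had no read in GWTT-Proximal and 156 in GS4T-Proximal. That was at least 48.4-fold higher (adjusted p = 0.011), the 1 of 37 called there (9.61% of all genes in either direction). Prss8 passed the filter only through its GS4T libraries, so its test depended on the values it tested. In GS4T-Distal 6 of 37 were called higher and 4 lower (7.88% and 6.08% of all genes), among them Sgk1 (1315 and 1568 against 4164 and 4652, 1.62, adjusted p = 0.0017) and Tmprss2 (2.77). Slc9a3r1, St14, Kcnq1 and Atp12a were the other genes called higher, and Nr3c1, Fxyd1, Fxyd6 and Kcnn4 those called lower. Atp12a passed the filter only through its GS4T-Distal libraries, so its test depended on the values it tested. All 6 pan-epithelial markers were called higher in the same libraries, and none of 36 and 38 genes was called in the GA3T comparisons (2 and 8 past the unadjusted p and fold).

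The genes whose log2 CPM most resembled that of Slc26a3 across the 12 Muc2-mCherry+ libraries were Chp2 (Pearson r = 0.949), Armc8 (0.946) and Trpm6 (0.936). For Scnn1b they were Ramp1 (0.953), Cldn2 (0.953) and Gpr155 (0.929), and for Cftr Wdsub1 (0.844), Zfp219 (0.843) and Tctn1 (0.835). Across the 16 distinct organoid libraries Slc26a3 was followed by Pheta1, Slc40a1 and Plekhh1 (0.963 each), and Cftr by Aspm (0.993), Neil3 (0.989) and Chsy1 (0.989). Aspm and Neil3 are transcribed in dividing cells. The points share genotype, segment, treatment and library, so these values describe likeness only. Scnn1b was below the level asked for in organoids.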

How the data were processed

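RNA was sequenced from sorted colon cells and organoids. The authors checked reads with FastQC, kept unique STAR 2.5.3 alignments to mm10 and deposited 1 table per comparison of a normalized signal, gene counts divided by a DESeq2 1.28.1 size factor per library. The counting program, annotation and strand setting are not given in the sources used here. Every value was a whole multiple of 1 step per library (100% within 0.1), so reads were recovered and CPM computed; no depth correction beyond this was made. The 4 unnamed rows of both GS4M2 tables held 20.9 to 28.2% of values and were left out. Groups came from the sample labels and columns from their names.

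Within a table limma 3.58.1 (trend) was fitted to log2(value + 1) for genes with a mean of at least 10. Fold changes are on that scale, which understates changes of low genes. A gene with few control reads could reach that mean only where the other group was high. Calls needed p below 0.05 after Benjamini-Hochberg adjustment over all genes tested, together with a log2 fold change of 1 or more in size. Comparisons across tables used log2(CPM + 1), a mean CPM of at least 0.5 and group means, with library weights per source (1.34 for Muc2-mCherry+, 0.802 for organoids) for tissue against organoid. The organoid fit was planned on 18 columns and run on the 16 distinct libraries, since 2 control libraries stand under both times. Adjusted p-values are limma's unless another tool is named.

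Members are named in every comparison within a table that has a row for them; comparisons across tables count all members and name some. Of the 39 other transport genes those called and up to 4 with the largest change are. A gene of these lists is not reported here by name. Members and lists were chosen with earlier results of these data known. Alternatives were edgeR 4.0.16, DESeq2 1.42.0, pseudocounts of 0.1 and 10, no filter or a mean of 50, unadjusted p, a replicate block, 1 fit of CPM and each library left out. Added after the data were seen were a sex block, averaged near-identical libraries, 1 control label only and the 18-column fit. Scripts were tested on simulated data. Intervals and floors (3 reads, at a 95% level) cover counting error only where read ratios are given.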

Additional observations from a re-analysis of the deposited data

Results flagged for a closer look

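Treated organoids at 72 h differed from those at 12 h past the test of the difference for 9 values. With IL-1 these were Slc26a3 (1.75 on the log2 scale), Chp2 (1.38), Scnn1a (1.11), Fxyd3 (-1.44), Fxyd4 (2.12) and Cftr (-2.40), and with IL-17A Slc26a3 (1.24), Scnn1a (1.07) and Fxyd3 (-1.37). None of the 9 passed with near-identical libraries averaged.

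Slc9a3 in proximal Muc2-mCherry+ cells (Smad4 effect minus Alk3 effect -4.08) and Fxyd4 in distal ones (-2.23) moved in opposite directions in the 2 knockouts, with every GS4M2 library below and every GA3M2 library above the controls. Of all genes 25.2% were separate and lower in GS4M2-Proximal and 26% separate and higher in GA3M2-Proximal. Distally these shares were 22.6% and 22.1%. The share of genes with both at once is not given, so the pattern is not read as particular to these genes. The direct limma test of either difference did not pass after adjustment (adjusted p = 0.061 and 0.12).

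Among the 4 distinct organoid controls 1 library was far from the others in each of 3 genes. All members were screened, and the cut-off used assumes independent libraries. Control-12h 4 and Control-72h 2 were nearly the same, so no chance rate is given. Control-12h 1 was high in Chp2 (119.5 CPM) and Scnn1a (83.3 CPM), and Control-12h 2 was low in Fxyd4 (0.352 CPM).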

How the results depend on the processing

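The direction of all 109 member values past the fold at the unadjusted p was kept under every alternative run, and of 276 other member values 88 changed sign under at least 1. The counts of members called moved as follows. DESeq2 called 8 (IL-17A 72 h, against 1), 4 (proximal GA3M2), 2 (proximal GS4M2), 4 (distal GS4T), 2 (distal GA3T) and 1 (proximal GA3T), each of the last 5 against 0, and edgeR 6 in the IL-17A time difference against 3. With the unadjusted p the counts were 6 (IL-17A 72 h), 4 (both proximal Muc2-mCherry+ comparisons), 2 (distal GA3M2), 4 (distal and proximal GS4T), 3 and 2 (distal and proximal GA3T), 5 (Smad4 minus Alk3), 1 and 2 (segments in GWTT and GWTM2), 4 (segments over genotypes), 3 and 2 (segment difference in Gli1+ and Muc2-mCherry+ cells), 5 (IL-17A time difference) and 6 (tissue minus organoid, 12 h). With the replicate number as a block they were 5 (IL-1 72 h), 0 (IL-17A 72 h), 5 and 4 (proximal GA3M2 and GS4M2), 3 (distal GS4T) and 4 (segments over genotypes). The numbers were not taken to pair the libraries, since no comparison had 3 or more pairs. The correlation of deviations of same-numbered libraries was 0.62 to 0.64 in the 12 h organoid comparisons and -0.19 to 0.30 in the others. At 12 h the main tests therefore leave out a likeness of same-numbered libraries. A sex block gave 5 and 4 in distal GA3M2 and GS4M2, 1 in proximal GA3M2, and 0 in IL-17A 72 h and its time difference. A single fit of CPM gave 3 (IL-17A 72 h), 1 (proximal GA3M2), 1 (proximal GA3T) and 2 (distal GS4T). In proximal GS4T a filter at 50 or a pseudocount of 0.1 gave 1, and in distal GS4T no filter gave 1 and a pseudocount of 10 gave 2. Control libraries alone gave 0 for segments in GWTM2. Averaging near-identical libraries gave 5 for IL-1 and 0 for IL-17A at 72 h and 0 for both time differences, the control of 1 label gave 0 for both, and 18 columns gave 1 (IL-1) and 0 (IL-17A) for the time difference.

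Leaving out 1 library gave 5 to 8 (IL-1 72 h), 0 to 8 (IL-17A 72 h), 0 to 5 (distal GA3M2), 0 to 2 (proximal GA3M2), 0 to 4 (distal GS4M2), 0 to 2 (proximal GS4M2, proximal GA3T, distal GS4T), 0 to 7 (proximal GS4T), 0 to 1 (segments in GWTT and in GWTM2) and 1 to 4 (segments over genotypes). Without IL17A-72h 2 the IL-17A time difference gave 7 and tissue minus organoid at 72 h gave 35. With 2 libraries a group, a lone sample is assumed to vary like the other groups. Members under the filter on low values were not tested.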
